A study of Mus musculus with 10 samples.

Results

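The genes described here are 9 transcripts that govern where a CD4+ T cell travels or that mark its resting state: the lymph node entry receptor Ccr7, the exit receptor S1pr1, the Krüppel-like factors Klf2, Klf3, Klf6 and Klf13, and Actn1, Dapl1 and Igfbp4, which are known as transcripts of naive T cells. They were taken by symbol from an RNA sequencing table of 17457 genes, all 9 were found, and all 9 passed the filter on low values, which required an FPKM (a fragment count scaled to transcript length and library size) of 1 or more in at least 4 libraries. The table holds 10 mouse libraries, 6 named TEST and 4 named CONTROL. Every library is described as made from CD4+ T cells sorted at terminal tumour burden. Per the labels the cells were then cultured for 5 h with antibodies to CD3 and CD28, IL-2 and TSLP, an epithelial cytokine, whereas the study's text calls the cells freshly sorted.

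TEST 1, TEST 2 and TEST 3 were C57BL/6 TSLPR-/- hosts with the K14-TSLP transgene, in which a keratin promoter of skin epithelium drives TSLP, and they had been given Ly5.1 CD4+ T cells and implanted PyMT tumours. TEST 4 was a C57BL/6 mouse with the K14-TSLP and MMTV-PyMT transgenes and TSLPR+/-, where the mammary promoter of MMTV drives the PyMT oncogene. TEST 5 was a BALB/c Rag1-/- host with both transgenes that had been given CD4+ T cells, and TEST 6 was a BALB/c Rag1+/- mouse with both transgenes. CONTROL 1 and CONTROL 2 were C57BL/6 TSLPR-/- hosts of TSLPR-deficient CD4+ T cells with implanted PyMT tumours, and no K14-TSLP transgene is named for them. CONTROL 3 was a C57BL/6 TSLPR-/- mouse with both transgenes, and CONTROL 4 was a BALB/c Rag1+/- mouse for which no transgene is named. No implanted tumour is named for CONTROL 4 either, so whether that mouse bore a tumour is unclear. TEST 1 and CONTROL 1 were from draining lymph nodes, TEST 2 and TEST 3 from non-draining nodes, CONTROL 3 from spleen and the other 5 libraries from draining and non-draining nodes together. By the labels, 4 mice were pooled for TEST 1, the same 4 for TEST 2, 4 others for CONTROL 1 and 2 for TEST 3. No ages at harvest are given. The donors of transferred cells were naive CD4+ T cells, the TSLPR-/- hosts were sublethally irradiated per the study's methods, and T cells of the host may remain in these samples. The 2 groups therefore differ in TSLP transgene, TSLPR genotype, tumour model, strain and organ at once, and these cannot be told apart in a single difference.

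A naive T cell enters a lymph node from blood when CCR7 senses the chemokines CCL19 and CCL21 on the vessel wall, and it leaves again along a gradient of sphingosine 1-phosphate sensed by S1PR1. The transcription factor KLF2 drives the gene for S1PR1, and FOXO1 drives the genes for KLF2 and CCR7 in turn. Signalling through the antigen receptor lowers KLF2 and raises CD69, which holds S1PR1 inside the cell, so that an activated cell stays in the node. KLF3 is a repressor that acts through CtBP proteins, KLF6 is widely expressed, and KLF13 binds the promoter of the chemokine gene Ccl5 in T cells.

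The DNA just before the start of a gene is shown for 3 members: Klf2, because its product is the best known regulator of the group, Klf3, because it held the most KLF motifs, and Dapl1, because it alone held a FOXO motif. The sequences are the 250 bases before the gene start in RefSeq on GRCm38.p6, read 5′ to 3′ on the strand of the gene. Capitals mark the KLF core CACCC (on the other strand GGGTG) or the FOXO site GTAAACA (on the other strand TGTTTAC), and no marked site overlapped another. The windows lie at chr8:72318812-72319061 (Klf2, plus strand), chr5:64803271-64803520 (Klf3, plus strand) and chr2:59484403-59484652 (Dapl1, plus strand).
Klf2: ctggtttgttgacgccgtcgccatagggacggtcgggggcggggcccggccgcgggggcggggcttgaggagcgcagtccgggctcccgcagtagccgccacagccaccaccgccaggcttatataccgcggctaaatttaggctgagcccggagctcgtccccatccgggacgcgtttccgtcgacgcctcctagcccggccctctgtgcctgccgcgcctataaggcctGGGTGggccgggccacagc
Klf3: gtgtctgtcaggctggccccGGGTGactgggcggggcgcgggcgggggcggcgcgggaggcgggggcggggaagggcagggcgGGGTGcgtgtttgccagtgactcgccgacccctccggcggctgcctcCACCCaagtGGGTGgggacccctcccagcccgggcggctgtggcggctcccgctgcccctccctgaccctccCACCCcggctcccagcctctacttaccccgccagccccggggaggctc
Dapl1: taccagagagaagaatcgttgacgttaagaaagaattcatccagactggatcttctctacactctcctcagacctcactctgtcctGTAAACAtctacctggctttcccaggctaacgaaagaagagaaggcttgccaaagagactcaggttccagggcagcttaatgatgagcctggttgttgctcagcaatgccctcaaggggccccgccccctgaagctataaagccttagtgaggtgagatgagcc
Promoter sequences were at hand for 7 of the 9 genes, not for Ccr7 and S1pr1. The KLF core occurred 5 times in the Klf3 window, 2 times on the strand of the gene and 3 times on the other, and 1 time each in those of Klf2, Klf13 and Igfbp4. The Igfbp4 window, at 99040994 to 99041243 of chromosome 11, lay inside the annotated span of that gene. The windows of Klf6, Actn1 and Dapl1 held none. A KLF core was present in 52.0% of 32851 windows of this length, and 5 or more in 0.667% of them. The Klf3 window had a GC content of 78.4%, against a median of 52.4% over all windows, and the motif is itself rich in G and C. The FOXO site occurred 1 time, 164 bases before the start of Dapl1, and in 3.17% of all windows. These matches describe letters in a window and are not measured binding.

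The libraries were first checked for identity and scale. Crlf2, which encodes the TSLPR chain, was at 5.7 to 34.9 FPKM in the 6 TEST libraries and at 0.15, 0.21, 0.16 and 3.28 in CONTROL 1 to CONTROL 4, the first 3 of which are labelled TSLPR-deficient. T cell markers were present in every library, with a summed level over 12 of 12 genes of 1603 to 2856 FPKM in TEST and 1859 to 2240 in CONTROL. The share of FPKM held by 4 ribosomal RNA rows was 1.18% for TEST 4, against 10.7% to 26.0% for the remaining 9 libraries, so that the remaining genes of TEST 4 stand higher, and leaving those rows out multiplied its values by 0.677. Relative depth, read from the steps between the lowest values, was 0.642 to 1.19 with TEST 1 set to 1, and absolute depth is unknown because no counts are given.

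Ccr7 and S1pr1, the receptors for entry and exit, were lowest in the 4 TEST libraries made from transferred T cells. Ccr7 (gene ID 12775, chromosome 11, 99144199 to 99155077) was at 85.6, 89.4, 86.6, 206, 56.5 and 177 FPKM in TEST 1 to TEST 6, against 198, 138, 327 and 155 FPKM in CONTROL 1 to CONTROL 4. TEST 1, TEST 2, TEST 3 and TEST 5 lay below every CONTROL library, whereas TEST 4 and TEST 6 lay among them. With the ribosomal RNA rows left out, TEST 4 (139.6 FPKM) and TEST 6 (152 FPKM) were also below the lowest CONTROL library (159 FPKM). The group means were 117 ± 59.9 FPKM in TEST (SD, n = 6) and 205 ± 85.6 FPKM in CONTROL (SD, n = 4), a log2 difference of -0.87 ± 0.36 (SE, limma adjusted p = 0.324). All log2 differences here are TEST minus CONTROL on log2(FPKM + 1) unless another pair is named, and a gene was called at an adjusted p under 0.05 over all genes tested.

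S1pr1 (gene ID 13609, chromosome 3, 115710433 to 115715055) showed the same arrangement of libraries. It was at 49.8, 55.3, 69.3, 144, 27.97 and 107 FPKM in TEST 1 to TEST 6, against 101, 146, 160.4 and 137 FPKM in CONTROL 1 to CONTROL 4. The lowest library was TEST 5, the Rag1-/- host, and only TEST 4 and TEST 6 overlapped the CONTROL range. That overlap was gone with the ribosomal RNA rows left out, where TEST 4 and TEST 6 were at 97.3 and 92.3 FPKM and the lowest CONTROL library at 103 FPKM. The log2 difference was -1.01 ± 0.37 (SE, adjusted p = 0.275). In bulk RNA, fewer cells that express a gene and less RNA per cell cannot be told apart, and this holds for every value here.

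Klf2 (gene ID 16598, chromosome 8, 72319062 to 72321654) was at 13.2, 8.14, 19.5, 100.01, 12.8 and 32.5 FPKM in TEST 1 to TEST 6, against 34.3, 69.2, 33.4 and 33.1 FPKM in CONTROL 1 to CONTROL 4. Every TEST library except TEST 4 lay below every CONTROL library, and TEST 4 lay above all of them. The log2 difference was -0.88 ± 0.53 (SE, adjusted p = 0.481) over all libraries and -1.32 ± 0.34 (adjusted p = 0.105) without TEST 4. With the ribosomal RNA rows left out TEST 4 was at 67.7 FPKM and CONTROL 2 at 79.8 FPKM, so the top place passed to CONTROL 2. TEST 4 and CONTROL 2 were also the libraries with the highest summed level of 8 B cell markers, 16.3 FPKM in TEST 4 and 26.7 FPKM in CONTROL 2, against 0.50 to 4.05 FPKM in the others, and the part of these cells in the Klf2 values was not tested.

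Klf3 (gene ID 16599, chromosome 5, 64803521 to 64832901) had a different pattern, since TEST 4 was among its low libraries. It was at 34.9, 38.6, 103, 36.5, 26.7 and 153 FPKM in TEST 1 to TEST 6, against 81.7, 132, 200.1 and 165 FPKM in CONTROL 1 to CONTROL 4. TEST 3 and TEST 6 overlapped the CONTROL range and the other 4 TEST libraries lay below it. The log2 difference of -1.37 ± 0.45 (SE, adjusted p = 0.232) was the largest of the KLF members in size.

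Klf6 and Klf13 varied less. Klf6 (gene ID 23849, chromosome 13, 5861489 to 5870393) ranged over 1.75-fold across the 10 libraries, the narrowest range of the 9 genes, with 58.7 to 84.0 FPKM in TEST (median 77.1) and 75.5 to 103 FPKM in CONTROL (median 91.6), and its log2 difference was -0.28 ± 0.19 (adjusted p = 0.538). Klf13 (gene ID 50794, chromosome 7, 63886351 to 63938915) spanned 20.3 to 62.9 FPKM in TEST (median 31.7) and 39.9 to 51.8 FPKM in CONTROL (median 45.7), with a log2 difference of -0.46 ± 0.29 (adjusted p = 0.50). The 4 TEST libraries of transferred cells were all below the CONTROL range of Klf13, and TEST 6 was above it. How many of all genes had these 4 libraries below the CONTROL range was not counted. Klf13 overlaps E030018B13Rik, and without stranded counting the reads of the pair could not be told apart.

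Actn1 (gene ID 109711, chromosome 12, 80167542 to 80260420), which encodes the actin cross-linking protein alpha-actinin 1, had the largest difference of the 9 genes. It was at 2.52, 1.95, 8.27, 20.01, 2.12 and 13.9 FPKM in TEST 1 to TEST 6, against 14.3, 47.0, 24.8 and 31.3 FPKM in CONTROL 1 to CONTROL 4. TEST 4 was the only TEST library above the lowest CONTROL library, and with the ribosomal RNA rows left out it was below it, at 13.5 FPKM against 14.5 FPKM in CONTROL 1. The means were 8.12 ± 7.48 FPKM in TEST (SD, n = 6) and 29.3 ± 13.7 FPKM in CONTROL (SD, n = 4), and the log2 difference was -2.05 ± 0.56 (SE, adjusted p = 0.158). Its highest value was in CONTROL 2, the library with the most B cell marker RNA.

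Dapl1 (gene ID 76747, chromosome 2, 59484653 to 59505020), which encodes death associated protein-like 1, spanned 163-fold across the 10 libraries. It was at 0.32, 3.72, 4.93, 52.2, 2.16 and 19.8 FPKM in TEST 1 to TEST 6, against 7.55, 9.51, 24.3 and 8.31 FPKM in CONTROL 1 to CONTROL 4. The 4 TEST libraries of transferred cells lay below all CONTROL libraries and TEST 4 lay above them all, so the group means were close, at 13.9 ± 20.04 FPKM in TEST (SD, n = 6) and 12.4 ± 7.98 FPKM in CONTROL (SD, n = 4). The log2 difference was -0.76 ± 0.80 (SE, adjusted p = 0.705).

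Igfbp4 (gene ID 16010, chromosome 11, 99040005 to 99052655), which encodes a secreted binding protein of insulin-like growth factors, was set apart by 1 library. It was at 303 FPKM in TEST 4, against 7.58, 7.90, 9.84, 3.39 and 15.2 FPKM in the other TEST libraries and 9.49, 8.43, 10.9 and 5.89 FPKM in CONTROL 1 to CONTROL 4. The value of TEST 4 was 19.9 times the next highest, and 15.7 times with the ribosomal RNA rows left out. The log2 difference was 0.77 ± 0.86 (SE, adjusted p = 0.728) over all libraries and -0.08 ± 0.33 (adjusted p = 0.932) without TEST 4. TEST 4 was the highest of the 10 libraries for Klf2, Dapl1 and Igfbp4, as it was for 38.5% of all genes tested. With the ribosomal RNA rows left out it remained the highest for Dapl1 and Igfbp4, and was so for 15.4% of genes.

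Tns4, which encodes a tensin and lies between Igfbp4 and Ccr7 on chromosome 11 (99065678 to 99089306), was looked at after its values were seen. It was at 15.5 FPKM in TEST 4, against 0.06 to 0.23 FPKM in the other TEST libraries and 0 to 0.26 FPKM in CONTROL. Markers of other cell types were also high in TEST 4: the summed level of 4 measured red cell markers was 51.2 FPKM, against 0 to 1.96 FPKM in the other TEST libraries and 0.86 to 7.56 FPKM in CONTROL, and that of 4 neutrophil markers was 31.7 FPKM, against 1.10 to 16.9 FPKM and 2.16 to 11.1 FPKM. The 9 endothelial markers summed to 70.9 FPKM in TEST 4, 17.4 to 31.8 FPKM in the other TEST libraries and 28.8 to 37.4 FPKM in CONTROL. However, 8 of the 9 were under 1 FPKM in every library, so this sum rests mainly on the remaining gene. With the ribosomal RNA rows left out, TEST 4 was at 34.7 FPKM for the red cell markers (up to 7.67 FPKM in the other 9 libraries), at 21.5 FPKM for the neutrophil markers (up to 19.8 FPKM) and at 48.02 FPKM for the endothelial markers (up to 41.8 FPKM). All 6 fibroblast and stromal markers were under 1 FPKM in every library. The part of such cells in the Igfbp4 value was not tested.

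**Figure D1:**
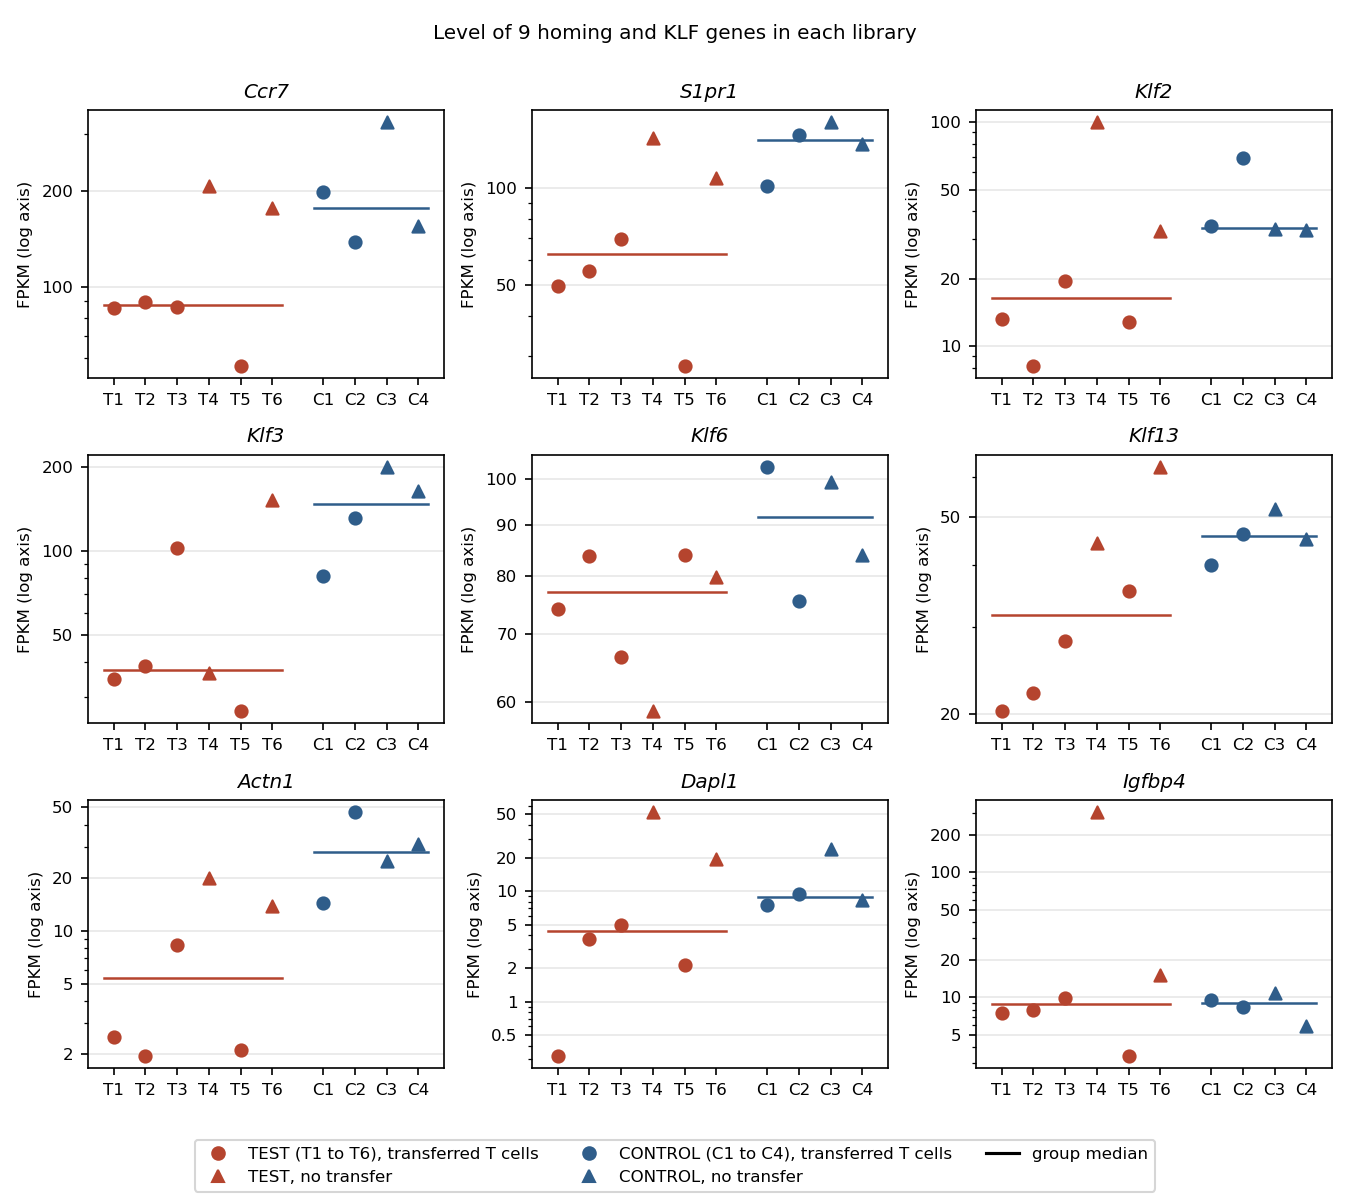
FPKM of the 9 genes (log axes that differ between panels) in the 6 TEST libraries (T1 to T6, left) and the 4 CONTROL libraries (C1 to C4, right), 1 point per library, with circles for transferred T cells, triangles for no transfer and lines for group medians. The circles of TEST lie below the triangles of TEST for 7 genes, and T4 stands at 303 FPKM for Igfbp4.

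Across the 9 genes, 8 log2 differences were negative and 1, that of Igfbp4, was positive, and none of the 9 was called by limma, where 0.0931% of 10743 genes were called. The median log2 difference of the 9 genes was -0.87, against 0.00 over all genes tested, of which 49.7% had a negative difference. At an unadjusted p under 0.05 there were 4 of the 9 genes (Ccr7, S1pr1, Klf3 and Actn1) and 13.7% of all genes. A rank test called no gene at all, its smallest adjusted p being 0.297, so it cannot decide on the 9 genes. The p-values measure the spread between these libraries, of which TEST 1 and TEST 2 share their mice.

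No member had all 6 TEST libraries below all 4 CONTROL libraries, a pattern found for 1.96% of genes tested. It was present for Ccr7, S1pr1 and Actn1, and for 3.63% of genes, with the ribosomal RNA rows left out. Without TEST 4 it held for Klf2 and Actn1, and for 3.49% of genes. For Ccr7, S1pr1, Klf13 and Dapl1, as for Klf2 and Actn1, the 4 transferred TEST libraries lay below all CONTROL libraries. The share of all genes with that pattern was not counted, so it cannot be read as particular to these genes. Actn1 fell without TEST 4, by 2.38 on the log2 scale (limma adjusted p = 0.0458), in a fit that called 0.793% of genes, but was not called when TEST 1 and TEST 2, which share their mice, were also averaged (-2.19, adjusted p = 0.113). S1pr1 and Actn1 fell when TEST 4 and the ribosomal RNA rows were left out together, with log2 differences of -1.28 (adjusted p = 0.0389) and -2.45 (adjusted p = 0.029), where 1.0% of genes were called, a combination chosen after the values were seen. With weights that count variable libraries less, Ccr7 (-1.19, adjusted p = 0.0331), S1pr1 (-1.24, adjusted p = 0.0252) and Actn1 (-2.48, adjusted p = 0.0123) fell, and 3.11% of all genes were called.

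**Figure D2:**
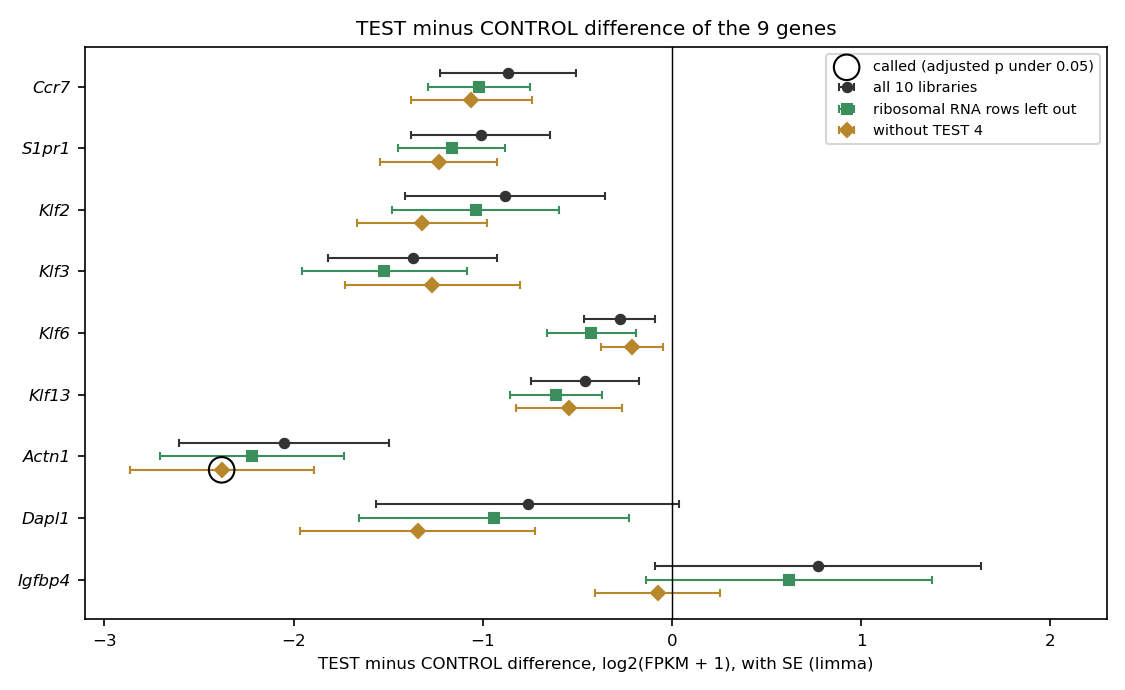
TEST minus CONTROL difference in log2(FPKM + 1) with its SE from limma for the 9 genes, in all 10 libraries, with ribosomal RNA rows left out, and without TEST 4, where a ring marks an adjusted p under 0.05. Of these values only that of Actn1 without TEST 4, at -2.38, is ringed, and Igfbp4 moves across 0 when TEST 4 is left out.

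Within C57BL/6, with 4 TEST and 3 CONTROL libraries, none of the 9 genes was called, where 0.0936% of genes were called. An unadjusted p under 0.05 was found for 5 of the 9 genes and for 12.4% of all genes. The limma adjusted p of the 9 genes ranged from 0.262 to 0.722. The log2 differences of Actn1 (-1.99 ± 0.64), Klf3 (-1.42 ± 0.42) and Klf2 (-0.95 ± 0.67, SE) were within 0.1 of those over all libraries. Those of Klf13 (-0.72 ± 0.30, against -0.46 over all libraries), Dapl1 (-0.98 ± 0.97) and Igfbp4 (1.09 ± 1.04, SE) were further from 0 than over all libraries. Without TEST 4, S1pr1 (log2 difference -1.198, adjusted p = 0.0397) and Actn1 (-2.54, adjusted p = 0.0414) fell in this strain, where 1.31% of genes were called. The TEST libraries left in that fit were all of transferred cells, and TEST 1 and TEST 2 share their mice. That fit treats TEST 1 and TEST 2 as separate, and a version with them averaged was not run within C57BL/6. BALB/c had 2 TEST libraries and 1 CONTROL library and was not tested alone.

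Strain itself was examined at equal group. Between BALB/c and C57BL/6 none of the 9 genes was called, where 0.596% of genes were called. None of the 9 had an unadjusted p under 0.05, against 9.07% of all genes. The log2 differences, BALB/c minus C57BL/6, had a median of 0.00 and the extremes were -1.12 ± 0.89 for Igfbp4 and 0.48 ± 0.29 for Klf13 (SE, adjusted p = 0.795 and 0.672). A test of whether the group difference itself differed between the strains called none of the 9 genes and 0.0% of all genes, none of the 9 had an unadjusted p under 0.05, and it rests on the single BALB/c CONTROL library.

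A comparison by transfer was added after the values were seen, since the low TEST libraries were those of transferred cells. In the 4 transferred TEST libraries Ccr7 was at 56.5 to 89.4 FPKM and S1pr1 at 27.97 to 69.3 FPKM, against 177 and 206 FPKM and 107 and 144 FPKM in the 2 TEST libraries without transfer. Actn1 was at 1.95 to 8.27 FPKM in the transferred TEST libraries, against 13.9 and 20.01 FPKM in those without transfer. In CONTROL the same split was absent for Actn1, with 14.3 and 47.0 FPKM in transferred and 24.8 and 31.3 FPKM in not transferred libraries. It was also absent there for Ccr7, with 198 and 138 FPKM in transferred and 327 and 155 FPKM in not transferred libraries. The CONTROL values of S1pr1 overlapped too, at 101 and 146 FPKM in transferred and 160.4 and 137 FPKM in not transferred libraries.

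Within TEST, the 4 transferred libraries lay below both others for 7 of the 9 genes, all but Klf3 and Klf6, as they did for 25.8% of genes tested. With the ribosomal RNA rows left out this held for 6, without Klf13, and for 7.34% of genes. In a model of group and transfer over all 10 libraries, 8 of the 9 log2 differences, transferred minus not transferred, were negative, as were 63.3% of those of all genes. The largest were -2.21 ± 0.57 for Dapl1 (SE, limma adjusted p = 0.31) and -1.76 ± 0.76 for Igfbp4 (adjusted p = 0.445), with -0.92 ± 0.27 for Ccr7 (adjusted p = 0.336). Without TEST 4 that of Igfbp4 was -0.395 (adjusted p = 0.75) and that of Klf2 -0.266, against -0.95 with it. None of the 9 genes was called and 0.0% of all genes were, while 6 of the 9 and 10.5% of all genes had an unadjusted p under 0.05. The median over the 9 genes was -0.92 and over all genes -0.13. Transfer goes together with donor origin and, in TEST 1 to TEST 3 and in CONTROL 1 and CONTROL 2, with irradiation of the host and the implanted tumour, which cannot be told apart here.

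A dependence of the group difference on transfer had its smallest unadjusted p among the 9 genes, 0.00295, for Klf2. In transferred cells it was at 8.14 to 19.5 FPKM in TEST and at 34.3 and 69.2 FPKM in CONTROL, and in cells without transfer at 32.5 and 100.01 FPKM in TEST and at 33.1 and 33.4 FPKM in CONTROL. The interaction, transferred minus not transferred, was -2.61 ± 0.69 for Klf2 (SE, adjusted p = 0.484) and -3.31 ± 1.31 for Igfbp4 (adjusted p = 0.484), against a median of -0.51 over all genes, and -2.11 ± 0.64 for Klf2 with the ribosomal RNA rows left out. Without TEST 4 the interaction of Igfbp4 was -1.2 ± 0.66 (adjusted p = 0.709). Over all 10 libraries none of the 9 genes and 0.0% of all genes were called. An unadjusted p under 0.05 was found for 4 of the 9 and for 10.1% of all genes. Without TEST 6, which leaves TEST 4 as the single TEST library without transfer and assumes that it varies like the other groups, the interaction was called for Klf2 (-3.41, adjusted p = 0.0229) and Igfbp4 (-5.43, adjusted p = 0.0147), where 6.07% of genes were called.

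**Figure D3:**
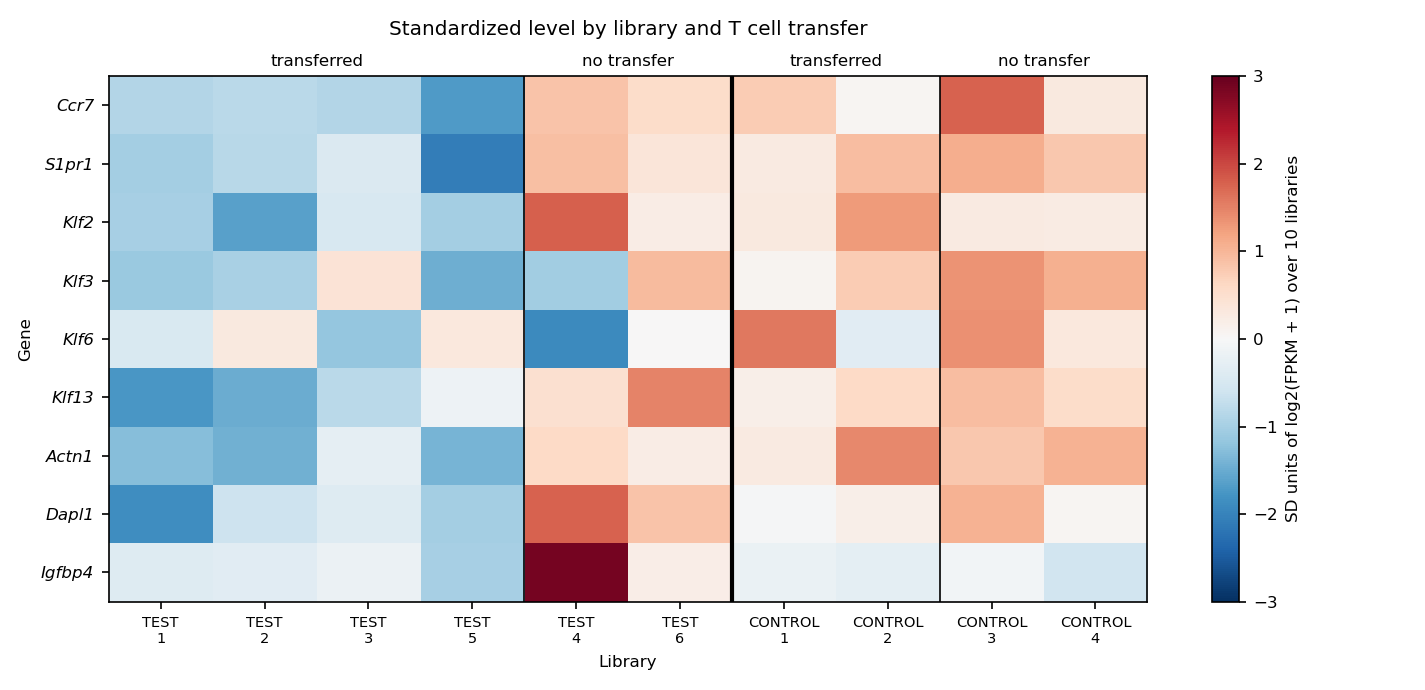
Level of each of the 9 genes (rows) in each library (columns) in SD units of log2(FPKM + 1) over the 10 libraries, with TEST left of CONTROL (thick line) and transferred left of no transfer (thin lines). TEST 5 has the lowest cells for Ccr7 (-1.71) and S1pr1 (-2.07), and the darkest cell is Igfbp4 in TEST 4 (2.86).

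Node and organ could be described but not tested. TEST 1 and TEST 2, from the draining and non-draining nodes of the same 4 mice, were within 1.5-fold of each other on FPKM + 1 for 7 of the 9 genes. Klf2 was 1.56 times as high in the draining node, at 13.2 FPKM against 8.14 FPKM, and Dapl1 was at 0.28 times, with 0.32 FPKM in the draining node and 3.72 FPKM in the non-draining one. Over all genes tested 15.2% differed by more than 1.5-fold between these libraries.

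The spleen library, CONTROL 3, was the highest of all 10 for Ccr7 (327 FPKM), S1pr1 (160.4 FPKM) and Klf3 (200.1 FPKM), as it was for 4.02% of genes tested. It remained the highest for Ccr7 and Klf3, and for 4.6% of genes, with the ribosomal RNA rows left out, whereas S1pr1 was highest in CONTROL 2 (168.5 FPKM, against 166.1 FPKM in CONTROL 3). For Ccr7 it was 1.99 times the mean of the other CONTROL libraries on FPKM + 1, and for S1pr1 1.25 times. Dapl1 was 2.68 times as high in the spleen library, at 24.3 FPKM. Klf2 (0.739 times) and Actn1 (0.809 times) were not above the other CONTROL libraries there. A single spleen library gives no replicate check, and it differs from the other CONTROL libraries in genotype as well as in organ.

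Of 17 KLF genes in the table, 10 passed the filter, and 9 of these 10 had a negative log2 difference, against 49.7% of all genes tested. Some of these differences were small next to their SE, such as those of Klf16 (-0.08 ± 0.43) and Klf4 (-0.21 ± 0.32). Klf7, which is not among the 9 genes, had all 6 TEST libraries below all 4 CONTROL libraries, with 11.2, 13.0, 12.1, 4.49, 5.89 and 13.3 FPKM in TEST 1 to TEST 6 against 17.6, 47.2, 32.3 and 20.2 FPKM in CONTROL 1 to CONTROL 4, and a log2 difference of -1.45 ± 0.34 (SE, adjusted p = 0.136). Klf4, Klf9, Klf10, Klf11 and Klf16 had medians under 6 FPKM in both groups. Klf10, an early gene of TGF-beta signalling, had the only positive value of the 10, 0.14 ± 0.37 (adjusted p = 0.896).

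**Figure D4:**
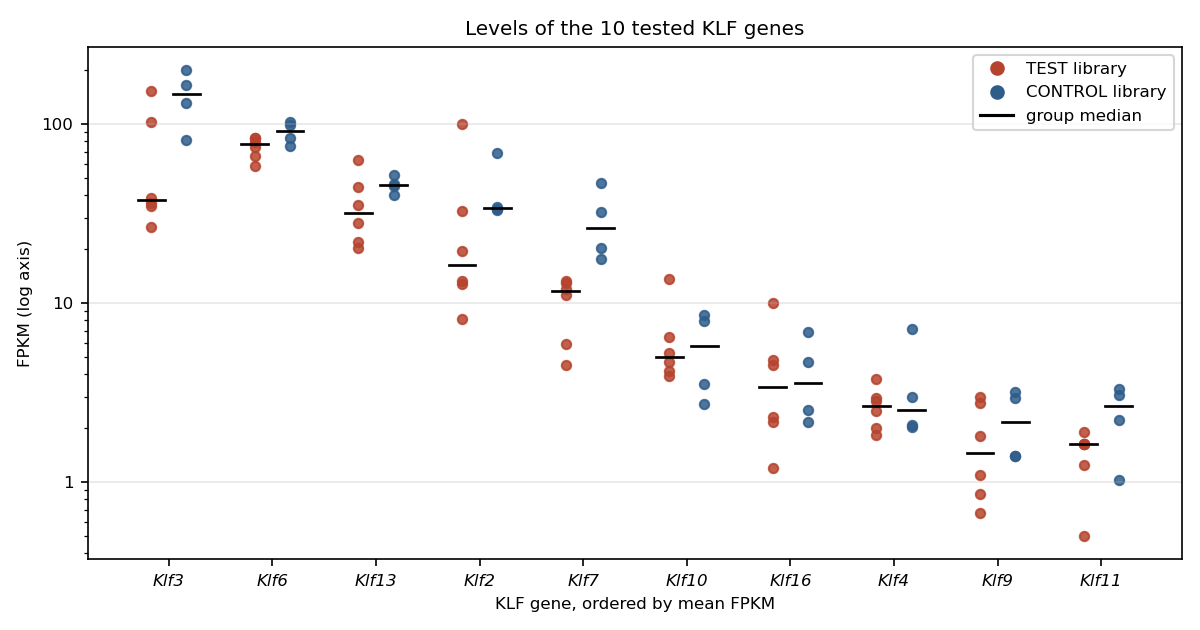
FPKM (log axis) of the 10 tested KLF genes, ordered by mean level, with 1 point per library, the 6 TEST libraries left of the 4 CONTROL libraries for each gene and black lines at group medians. The members Klf3, Klf6, Klf13 and Klf2 are the most abundant of the 10, and Klf7 is the only one of the 10 whose groups do not overlap.

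The pathway around these genes was read from lists, none of which had a called gene in either direction. Of 18 tested genes of lymph node entry, 6 were lower and 12 higher in TEST, with a median log2 difference of 0.22. The integrin chain gene Itga4 ranged over 7.70 to 34.8 FPKM in TEST and 30.1 to 55.1 FPKM in CONTROL. Selplg, the ligand of P-selectin, averaged 110.3 ± 36.4 FPKM in TEST and 65.9 ± 6.90 FPKM in CONTROL (SD), and Rap1b, a small GTPase that activates integrins, 174 ± 58.0 and 109.9 ± 41.2 FPKM.

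In the sphingosine 1-phosphate pathway 5 of 11 tested genes were lower and 6 higher in TEST, with a median of 0.03. S1pr4, the other receptor at sizeable levels, was at 22.2 to 35.2 FPKM in TEST and 29.2 to 45.8 FPKM in CONTROL (-0.35 ± 0.21, adjusted p = 0.466), while S1pr2 averaged 6.69 ± 2.16 and 4.53 ± 1.15 FPKM (SD). S1pr3 and S1pr5 were below 1 FPKM in every library. Sgpl1, the lyase that degrades the ligand, averaged 24.4 ± 14.5 FPKM in TEST and 15.3 ± 1.51 FPKM in CONTROL, and Sphk2, a kinase that makes it, 11.9 ± 1.31 and 14.7 ± 2.24 FPKM. Cd69 was at 42.7 to 231 FPKM in TEST and 64.1 to 110 FPKM in CONTROL (-0.21 ± 0.38, adjusted p = 0.846).

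Among 20 tested genes that control KLF2 and S1PR1, 15 were lower and 5 higher in TEST, with a median of -0.30. Foxo1 was at 50.5 to 102 FPKM in TEST and 61.8 to 101 FPKM in CONTROL (-0.35 ± 0.24, adjusted p = 0.536), and Foxo3 averaged 10.6 ± 3.25 and 18.1 ± 3.32 FPKM (SD). Mef2d, a factor downstream of the ERK5 kinase, averaged 35.8 ± 7.42 FPKM in TEST and 63.5 ± 11.1 FPKM in CONTROL (adjusted p = 0.138), Pik3r1, the regulatory subunit of PI3 kinase, 17.99 ± 2.38 and 28.5 ± 0.548 FPKM (adjusted p = 0.17), and Rictor, a subunit of mTORC2, 17.3 ± 3.69 and 28.1 ± 6.86 FPKM. Of the 10 other tested genes of the KLF and SP family, 8 were lower and 2 higher, with a median of -0.26, and Sp4 averaged 12.3 ± 3.03 FPKM in TEST and 18.8 ± 1.63 FPKM in CONTROL. Of 6 partners and targets of KLF proteins, 2 were lower and 4 higher (median 0.26). Lgals3, which encodes galectin-3, averaged 42.2 ± 43.2 FPKM in TEST and 6.60 ± 5.82 FPKM in CONTROL (adjusted p = 0.137), and Ctbp1, the KLF3 partner, 27.1 ± 23.8 and 16.4 ± 3.76 FPKM.

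Other genes of the naive state leaned the same way as the 9 genes, with 18 of 22 lower and 4 higher in TEST and a median of -0.40. Lef1, a transcription factor of naive T cells, was at 25.2, 30.3, 85.2, 42.9, 18.2 and 118 FPKM in TEST 1 to TEST 6 and at 79.1, 112, 153 and 128 FPKM in CONTROL 1 to CONTROL 4 (adjusted p = 0.223). Foxp1, a factor that holds T cells in quiescence, averaged 40.0 ± 11.2 FPKM in TEST and 79.8 ± 16.0 FPKM in CONTROL (adjusted p = 0.113), and Bach2, a repressor of effector genes, 27.1 ± 8.58 and 62.2 ± 24.3 FPKM (adjusted p = 0.148). Of 15 activation and effector genes 3 were lower and 12 higher, with a median of 0.93, and Batf, an AP-1 factor of activated T cells, averaged 78.8 ± 8.96 FPKM in TEST and 37.7 ± 21.6 FPKM in CONTROL (adjusted p = 0.138). The summed level of 16 proliferation markers was 239 to 487 FPKM in TEST and 203 to 431 FPKM in CONTROL, and its part in these values was not tested.

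A mixed list of effector homing receptors leaned the other way from Ccr7, with 3 of 11 lower and 8 higher in TEST and a median of 0.42. Ccr2, a receptor for monocyte chemoattractant proteins, was at 30.3, 39.0, 43.5, 7.17, 48.2 and 17.8 FPKM in TEST 1 to TEST 6 and at 17.5, 1.70, 5.11 and 1.57 FPKM in CONTROL 1 to CONTROL 4 (2.37 ± 0.58, SE, adjusted p = 0.138). The 4 transferred TEST libraries were the highest of the 10 for Ccr2, and the share of all genes with this pattern was not counted. Cxcr6 averaged 66.4 ± 47.4 FPKM in TEST and 18.02 ± 16.6 FPKM in CONTROL (SD, adjusted p = 0.251). Of 8 actinin and linker genes 3 were lower and 5 higher (median 0.14), and Actn4, the other actinin at sizeable levels, averaged 40.5 ± 14.9 FPKM in TEST and 39.3 ± 6.97 FPKM in CONTROL (0.00 ± 0.25, adjusted p = 0.996). Of the IGF list only Igf1r (-1.36 ± 0.44, adjusted p = 0.232) and Igfbp7 (1.57 ± 0.54, adjusted p = 0.251) passed the filter.

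The genes whose profile over the 10 libraries lay nearest to the mean profile of the 9 genes were Tcf7, Il17ra, Zfp281, Ctps2 and Il6st, with root mean square differences of 0.171, 0.207, 0.251, 0.26 and 0.263 SD units, against a median of 1.25 over all other genes. Tcf7, the transcription factor TCF-1 of naive and memory T cells, was at 163, 173, 238, 328, 164 and 349.7 FPKM in TEST 1 to TEST 6 and at 299, 345, 414 and 351 FPKM in CONTROL 1 to CONTROL 4. Il17ra and Il6st encode cytokine receptor chains. The nearest genes to Ccr7 alone were Acsl3 (0.312) and Fam117b (0.313), to S1pr1 Il17ra (0.248) and Itm2a (0.255), and to Klf2 Nbr1 (0.237) and Gtf2i (0.273). These distances describe 10 libraries that share scaling and, in part, mice.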

How the data were processed

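RNA sequencing was performed by a commercial service on CD4+ T cells from 10 samples. The authors deposited FPKM values for 17457 genes, computed from reads aligned to mm10 with Bowtie. BWA and RSEM are listed in the processing notes of the submitters, with no role stated, and no version is given in the sources used here. Ribosomal RNA rows are included. No per-sample columns of other series are in the table. Groups follow the labels, and replicate numbers follow accession order only.

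Values were tested as log2(FPKM + 1) with limma 3.58.1 in R 4.3.3 (trend on, robust off, two-sided, Benjamini-Hochberg over all genes tested), for genes that reached FPKM 1 in 4 or more libraries (3 within C57BL/6). The study used count-based methods, which FPKM does not allow. The pseudocount understates changes of low genes. The code was tested on simulated data. The ribosomal RNA rows left out in one alternative are Rn18s, Rn28s1, Rn45s and Rs5-8s1. Gene positions and promoters are from RefSeq on GRCm38.p6, where 17399 gene IDs matched. Relative depth was the commonest ratio between libraries of values under 0.4 FPKM.

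The members and lists were chosen with earlier results of these data known. All 9 members are named, and from each list up to 4 genes ranked by raw p, of which 1 is not reported here. Comparisons by transfer, and the fit without TEST 4 and the ribosomal RNA rows, were added after the values were seen.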

Additional observations from a re-analysis of the deposited data

Results flagged for a closer look

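Dixon's test at the 95% level was run on 18 groups of values, those of the 9 genes in TEST and in CONTROL. In 4 of the 18 groups, 1 library stood far from the rest. The test used FPKM and was not run on log2(FPKM + 1), the scale of the limma fits. Its chance rate of about 1 in 20 holds for independent groups of normally distributed values. The groups share libraries and normality of FPKM was not tested, so the 4 cannot be read against that rate. Igfbp4 was at 303.08 FPKM in TEST 4, where the other TEST libraries reached 15.2 FPKM. Klf2 was at 100.01 FPKM in TEST 4, with 32.5 FPKM the next highest in TEST. Klf2 was at 69.15 FPKM in CONTROL 2, and the other CONTROL libraries were between 33.1 and 34.3 FPKM. Dapl1 was at 24.33 FPKM in CONTROL 3, the spleen library, with 9.51 FPKM the next highest in CONTROL.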

How the results depend on the processing

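The number of the 9 genes called lower in TEST was 0 over all libraries, 1 without TEST 4 (the range on leaving out single libraries was 0 to 1), 0 with TEST 4 left out and TEST 1 and TEST 2 averaged, 3 with library weights and 2 with TEST 4 and the ribosomal RNA rows left out. Within C57BL/6 it was 0, and 0 to 2 on leaving out single libraries, with 2 without TEST 4. For the interaction of group and transfer it was 0, and 0 to 2 on leaving out single libraries, with 2 without TEST 6. The sign of Igfbp4 in TEST minus CONTROL turned without TEST 4, and ranged on leaving out single libraries from -0.076 to 1.15 over all libraries and from -0.168 to 1.55 within C57BL/6. It was also negative in hosts of transferred T cells with implanted tumours only (-0.0831), with TEST 4 left out and TEST 1 and TEST 2 averaged (-0.0654) and with TEST 4 and the ribosomal RNA rows left out (-0.125). For transferred minus not transferred cells, Klf6 turned to -0.0537 without TEST 4, reached 0.164 on leaving out single libraries (without CONTROL 2), and was at 0.368 with the ribosomal RNA rows left out. The cause was not tested, beyond the place of TEST 4 shown by leaving it out. The other members kept their sign in every alternative of TEST minus CONTROL. TPM and the removal of ribosomal RNA rows moved the median of all genes to -0.15 and -0.13, so member differences under them are to be read against that shift. The rank test cannot pass the threshold here, its smallest adjusted p being 0.297. The group by strain interaction could not be fitted without CONTROL 4. No paired analysis of TEST and CONTROL was possible because by the labels no TEST library shares its mice with a CONTROL library. With no counts, what depth limits cannot be stated for low values such as Dapl1 in TEST 1.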

Other observations

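Summed levels of the cell type lists not described above overlapped between the groups. CD8 T cell markers summed to 0.89 to 4.58 FPKM in TEST and 3.09 to 6.45 FPKM in CONTROL, NK cell markers to 1.62 to 10.4 FPKM and 0.82 to 7.02 FPKM, and dendritic cell markers to 2.62 to 11.3 FPKM and 4.45 to 7.37 FPKM. Monocyte and macrophage markers summed to 2.91 to 15.3 FPKM in TEST, highest in TEST 4, and 2.84 to 8.84 FPKM in CONTROL. Mast cell and basophil markers summed to 0.56 to 17.1 FPKM in TEST, highest in TEST 5, and 0.73 to 1.84 FPKM in CONTROL. Epithelial and tumour cell markers summed to 9.63 to 16.6 FPKM in TEST and 2.40 to 17.1 FPKM in CONTROL, with Krt14 at 0 in every library. Regulatory T cell genes summed to 525.7 to 1086 FPKM in TEST and 489 to 1319 FPKM in CONTROL, highest in CONTROL 1.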
